A study of Mus musculus with 4 samples.

Results

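Neuroendocrine and neuronal genes, 32 of the 31053 in the gene table, were followed by symbol through single-cell RNA sequencing of mouse lungs that carried orthotopic small cell lung cancer. The list was given by name: 8 granule proteins and secreted peptides, 3 genes of peptide and amine processing, 5 of vesicle fusion and the synapse, 3 surface or Notch pathway genes, 5 of the cytoskeleton and axon, 3 RNA-binding proteins and 5 other neuronal proteins. All 32 had at least 1 UMI, and 31 passed the filter on low counts, Calcb being the exception. Tumour cells had been injected into the lung, and growth was followed by MRI. There were 4 groups with 1 library each. The control mice received vehicle with an isotype IgG. The anti-PD-1 mice received 200 µg of antibody clone 29F.1A12 per mouse on alternate weekdays, the YKL-5-124 mice 10 mg/kg of this CDK7 inhibitor on each weekday, and the combination mice both at the same doses. All groups shared the lung perfusion, the collagenase D and DNase I digestion and the sort of live cells on DAPI, so no lineage was selected. The labels used here do not give the tumour line, the strain, the age or the number of animals pooled in a library.

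Neuroendocrine cells store peptide hormones and amines in dense-core granules, which they release on a calcium signal. Granins and prohormone convertases build and process the granule content, SNARE proteins and their partners drive its release, and neuronal RNA-binding and cytoskeletal proteins accompany this state. In small cell lung cancer the programme is driven by lineage factors such as INSM1 and NEUROD1, is held down by REST and by Notch signalling, and gives the diagnostic stains chromogranin A, synaptophysin and NCAM1. REST, a repressor, keeps neuronal genes silent in other tissues.

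Of the 32 genes, 26 had a promoter in the RefSeq table for GRCm38.p6, each 300 bases long from 250 bases before to 50 bases after the start site; Calcb, Snap25, Ncam1, Sez6, Stmn2 and Gap43 had none there. The promoters of 3 granins, of the peptide gene Calca, of the convertase gene Pcsk1 and of Pcsk1n, the gene past the size rule between libraries, are printed 5′ to 3′ on the gene's strand. Capitals mark TGACG, which is also the first part of the cAMP response element TGACGTCA, and the E-box CAGCTG; in Pcsk1n, which holds neither, they mark the GC box GGGCGG.
Chga promoter, chr12:102554691-102554990, plus strand: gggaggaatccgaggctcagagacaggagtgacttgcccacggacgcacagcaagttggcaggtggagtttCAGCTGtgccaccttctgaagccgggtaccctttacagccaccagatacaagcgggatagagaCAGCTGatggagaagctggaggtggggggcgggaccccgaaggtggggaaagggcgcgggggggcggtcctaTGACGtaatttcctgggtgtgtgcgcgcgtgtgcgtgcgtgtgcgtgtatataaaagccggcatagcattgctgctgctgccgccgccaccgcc
Chgb promoter, chr2:132781392-132781691, plus strand: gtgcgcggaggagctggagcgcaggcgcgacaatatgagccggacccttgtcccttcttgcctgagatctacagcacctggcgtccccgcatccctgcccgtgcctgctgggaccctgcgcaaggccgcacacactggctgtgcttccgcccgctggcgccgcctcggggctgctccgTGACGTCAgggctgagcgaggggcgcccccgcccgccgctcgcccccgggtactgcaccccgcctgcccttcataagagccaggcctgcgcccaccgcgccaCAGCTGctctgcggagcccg
Scg2 promoter, chr1:79439977-79440276, minus strand: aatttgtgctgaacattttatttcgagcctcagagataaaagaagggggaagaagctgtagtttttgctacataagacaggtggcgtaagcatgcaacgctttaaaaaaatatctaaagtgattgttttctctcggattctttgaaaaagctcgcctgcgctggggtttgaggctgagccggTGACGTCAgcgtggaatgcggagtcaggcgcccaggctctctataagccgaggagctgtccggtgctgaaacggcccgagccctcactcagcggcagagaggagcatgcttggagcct
Calca promoter, chr7:114636308-114636607, minus strand: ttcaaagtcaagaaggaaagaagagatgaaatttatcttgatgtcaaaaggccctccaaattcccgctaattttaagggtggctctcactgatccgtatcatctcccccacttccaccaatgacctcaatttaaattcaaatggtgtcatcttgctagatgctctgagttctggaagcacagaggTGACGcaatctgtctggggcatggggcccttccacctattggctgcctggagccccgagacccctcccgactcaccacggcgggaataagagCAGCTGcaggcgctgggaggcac
Pcsk1 promoter, chr13:75089607-75089906, plus strand: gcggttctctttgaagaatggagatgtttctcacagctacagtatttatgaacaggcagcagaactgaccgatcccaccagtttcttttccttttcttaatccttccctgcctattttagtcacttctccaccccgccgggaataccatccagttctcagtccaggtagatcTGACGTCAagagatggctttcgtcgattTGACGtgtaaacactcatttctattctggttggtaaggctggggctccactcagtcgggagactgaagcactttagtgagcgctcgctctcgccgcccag
Pcsk1n promoter, chrX:7919572-7919871, plus strand: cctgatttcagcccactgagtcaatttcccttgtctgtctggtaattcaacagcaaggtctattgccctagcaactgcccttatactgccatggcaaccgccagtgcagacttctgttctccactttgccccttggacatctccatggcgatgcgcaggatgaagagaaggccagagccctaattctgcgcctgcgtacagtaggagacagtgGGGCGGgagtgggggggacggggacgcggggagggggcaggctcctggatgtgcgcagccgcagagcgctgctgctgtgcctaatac

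The letters of 13 motifs were searched on both strands. TGACGTCA, the full cAMP response element, was found in the promoters of 4 of the 26 genes, Celf3, Chgb, Pcsk1 and Scg2, and in 2.03% of all 27025 genes in the table, each gene counted once over its promoters. Its first base lay 72 bases before the start site in Chgb, 68 in Scg2 and 78 in Pcsk1. The shorter TGACG, which every TGACGTCA contains, was found in 11 of the 26 genes against 23.0% of all genes, and lay 44 bases before the start of Chga and 65 before that of Calca. TGANGTCA, which also contains TGACGTCA, was found in 5 genes against 10.02% of all genes. The E-boxes CAGCTG and CAGGTG were found in 11 and 8 genes, against 18.3% and 22.6% of all genes; CAGCTG lay 31 bases after the start site of Chgb, 28 after that of Calca, and 179 and 116 before that of Chga. TATAAA was found in 7 genes (15.7% of all genes), GGGCGG in 15 (38.2%), CCAAT in 13 (41.1%), TAATTA in 2 (6.12%) and TGTTTAC in 2 (4.05%). The left part of the REST element, TCAGCACC, was found in Scg2 and Tubb3 (1.85% of all genes) and its right part, GGACAG, in 7 genes (24.7%). The NKX2-1 core CACTTGAA was found in 0 of the 26 genes and in 0.899% of all genes. A gene can have several promoters in the table, and a match describes letters only.

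The 4 libraries held between 17329001 and 22950622 UMIs, a UMI being a molecular tag that counts 1 captured transcript. A barcode was kept as a cell if it held 500 UMIs or more over 300 genes or more and no more than 10% of its UMIs were mitochondrial, which left 13985. Clusters were made without the 32 genes and named from other markers; 3601 cells were tumour-like (999 of the control library, 886 after anti-PD-1, 912 after YKL-5-124 and 804 of the combination) and 10042 fell into other named classes. In the tumour-like cells all 13 markers used for the name were found in every library, at a summed 3578.3 to 4336.1 CPM (UMIs of a gene scaled to the total UMIs of the same cells). All 9 T cell markers were found there too, at a summed 29.5 to 72.5 CPM, so finding a marker does not by itself name a class. The largest tumour-like cluster, of 1595 cells at a median of 854 UMIs, had 7 tumour markers raised, and the other tumour-like clusters all 13. Of all kept barcodes, 1459 (10.4%) held at least 10 times more UMIs under the same barcode in another library, and 1427 of these were tumour-like, 39.6% of that class. Such a barcode had a median of 830 UMIs against 34250 in the deeper library, a median ratio of 41.7. Most of them, 1405, had a tumour-like partner, and 98.1% of their UMIs fell in genes that the partner also expressed, against 91.7% for the next cell of like depth. They made up 1399 of the 1564 tumour-like cells under 2000 UMIs, 28 of the 1077 cells of 2000 to under 10000 UMIs and 0 of the 960 deeper cells. They are called shared barcodes here, and their cause was not tested. Leaving them out moved the level of 31 genes in a library by between -2.50% and 4.20%, the most for Pcsk1n in the combination, so levels are given with them; the counts of called genes are also given without them.

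In tumour-like cells, the secreted peptides and granule proteins were present in all 4 libraries with little spread between them. Calca (chr7:114631478-114636357), which encodes both calcitonin and the neuropeptide CGRP and whose products the counts do not separate, stood at 1628.5 CPM for control, 1515.6 after anti-PD-1, 1495.8 after YKL-5-124 and 1770.5 after the combination. The combination library was the highest and the YKL-5-124 library the lowest. Their exact 95% Poisson intervals, 1740.5 to 1800.9 and 1469.6 to 1522.4 CPM, did not overlap. Poisson intervals cover counting error only. They leave out the spread between cells, which was wide for Calca as given below, and are too narrow to compare libraries. Chga (chr12:102554969-102565028), the granule protein chromogranin A and a standard tumour stain, stood at 391.2, 364.5, 376.8 and 354.6 CPM in the same order. The other granins, Chgb, Scg2, Scg3 and Scg5, which shape the granule core or chaperone its convertases, and Resp18, another granule protein, had means over the 4 libraries between 128.1 and 273.9 CPM. Calcb, the neighbouring gene for a second CGRP peptide, had 10, 4, 11 and 2 UMIs in all tumour-like cells of the 4 libraries and was barely detectable.

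The processing genes were present too. Ddc (chr11:11814101-11898144), which makes dopamine and serotonin from their precursors, stood at 513.6, 516.0, 555.3 and 549.6 CPM in the control, anti-PD-1, YKL-5-124 and combination libraries. Pcsk1, the convertase that cuts prohormones in the granule, ranged from 337.3 to 362.0 CPM. Pcsk1n (chrX:7919822-7924410), whose product proSAAS inhibits that convertase, stood at 125.8, 252.1, 239.5 and 366.2 CPM. Control (119.3 to 132.5 CPM, exact Poisson) was lowest and the combination (352.6 to 380.2 CPM) highest, while the intervals of the single-agent libraries overlapped each other only. Eras, which overlaps Pcsk1n on the other strand, had 0 UMIs in the tumour-like cells of all 4 libraries.

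Release and synapse genes were detected in every library. Homer2, a postsynaptic scaffold, had a mean of 275.7 CPM; Cplx2, which clamps SNARE complexes until calcium arrives, had 178.4 CPM, and Syt1, the calcium sensor of fast release, 138.7 CPM. Snap25, a SNARE of the plasma membrane, and Syp, the vesicle protein synaptophysin, had means of 36.8 and 35.5 CPM. Among the surface genes, Ncam1, the adhesion molecule stained as CD56, ranged from 344.0 to 389.6 CPM and Sez6, a neuronal surface protein, from 24.1 to 29.1 CPM. Dll3, an inhibitory Notch ligand that is a drug target in this cancer, had 11.4, 9.40, 9.54 and 9.89 CPM, with overlapping Poisson intervals.

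The neuronal RNA-binding proteins varied little between libraries. Elavl3 (chr9:22015005-22052023) and Elavl4 (chr4:110203722-110351909), Hu proteins that stabilise neuronal messages, stood at 424.9, 417.2, 459.6 and 425.9 CPM and at 394.3, 403.7, 425.8 and 385.4 CPM. YKL-5-124 was highest for both. Celf3, a neuronal splicing regulator, had a mean of 22.1 CPM.

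Uchl1 (chr5:66676091-66687234), the abundant neuronal deubiquitinase PGP9.5, stood at 569.9, 617.5, 584.2 and 612.2 CPM. Bex1 (chrX:136213972-136215513) and Bex2 (chrX:136066564-136068236), X-linked paralogs whose reads the counting may split between them, stood at 536.4, 548.1, 512.1 and 508.9 CPM and at 863.1, 887.5, 882.2 and 842.1 CPM. Nnat (chr2:157560078-157562522), an imprinted membrane proteolipid, stood at 1036.3, 981.0, 979.6 and 867.5 CPM. Control was highest and the combination lowest for Nnat, with Poisson intervals of 1017.5 to 1055.4 and 846.5 to 888.9 CPM. These too leave out the spread between cells. Rtn1, a reticulon of the neuronal endoplasmic reticulum, ranged from 370.5 to 392.9 CPM.

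Of the cytoskeletal genes, Tubb3, the neuronal beta tubulin, and Stmn3, a microtubule-destabilising stathmin, had means of 171.2 and 212.7 CPM. Means were 45.2 CPM for Gap43, the growth cone protein, 17.3 CPM for Stmn2, another stathmin, and 17.1 CPM for Dcx, the microtubule-binding doublecortin of migrating neurons. Overlapping genes on the other strand were Blcap for Nnat, Tceal7 for Bex1 and Riiad1 for Celf3, and on the same strand Gm20388 for Tubb3, Gm5136 for Syt1 and Gm49318 for Elavl3. The sources used here do not say whether the counting used strand.

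**Figure D1:**
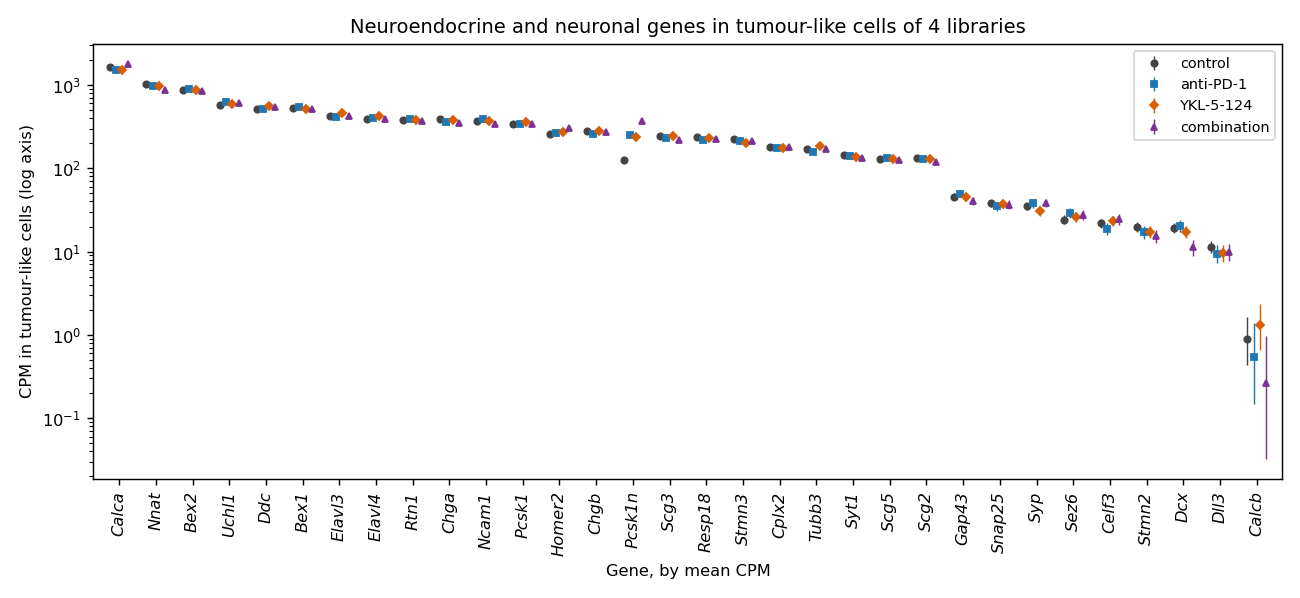
Level of each of the 32 genes in tumour-like cells (CPM, log axis) in each library, with exact 95% Poisson intervals as bars. The 4 libraries lie close together for most genes, Pcsk1n runs from 125.8 CPM in control to 366.2 CPM in the combination, and Calcb lies near 1 CPM.

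Cell by cell, most of the abundant genes were found in nearly every deep tumour-like cell. After each of the 960 cells with at least 10000 UMIs was thinned to 10000, a Calca UMI was found in 99.5% of them, with a median of 12 UMIs and a highest value of 247. The 10% of cells with the most Calca held 35.1% of its UMIs, and its variance was 23.0 times its mean, against a median of 1.66 for 99 genes of like mean. Nnat was next, with a variance 5.02 times its mean and up to 104 UMIs in a cell. The other members lay between 0.998 and 1.69. Bex2 was found in 99.8% of these cells, Ddc in 98.9%, Chga in 94.3%, Ncam1 in 94.8%, Syp in 29.3% and Dll3 in 9.06%. For Pcsk1n the share of cells was 83.1%, and ran from 67.2% to 95.7% between libraries.

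Tumour-like cells were next set against all other named cells of their own library. Most of these were immune-like: 3148 T cell-like, 2239 B cell-like, 1749 monocyte or macrophage-like, 1225 NK cell-like and 1035 neutrophil-like, with 76 epithelial-like. By edgeR's quasi-likelihood test on sums per library, with library as a block and Benjamini-Hochberg adjustment over 13702 genes, 30 of the 31 genes tested were higher in tumour-like cells and 0 were lower. In that contrast 43.0% of all genes were called higher and 40.2% lower. The neuroendocrine and neuronal genes were chosen with earlier results of these data known, so their count may partly reflect that choice. The median log2 fold change was 5.51 over the 31 genes and 0.06 over all genes. The called values ran from 4.24 ± 0.10 (SE) for Tubb3 to 6.29 ± 0.29 for Pcsk1n. Without the shared barcodes 30 genes were again called higher, against 42.9% of all genes. The exception was Stmn2, at 0.62 ± 0.32, with an adjusted p of 0.10 by the same edgeR test; without the combination library it was called higher at 1.01. The 4 libraries were treated differently, and the labels do not say which animals they came from. These p-values therefore measure how evenly the difference within a library held across libraries, and not a spread between animals.

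The other genes of the programme, from lists of related genes, were largely higher in the same contrast. The G2 and mitosis list had 50 of 51 genes higher there too, so a high count is not particular to these lists. Its median log2 fold change was 2.34, against 3.87 to 5.53 for the neuroendocrine and neuronal lists. All these lists were likewise chosen with earlier results known, so their counts may partly reflect that choice. All 14 lineage factors tested were higher, led by Isl1 (6.37), Insm1 (6.18) and Neurod1 (5.99) on the log2 scale; genes of this list, among them Insm1, Nkx2-1, Mycl and Foxa2, had served to name the clusters. Of 17 genes listed here under granule biogenesis and peptide processing, 13 were higher, with Sytl5 at 8.39, Ptprn2 at 8.18 and Vgf at 6.93. Secisbp2l, which is on that list but whose granule role was not checked, was lower at -0.98. Of 10 peptide hormone and amine genes 7 were higher, with Iapp at 6.94, Cck at 6.39 and Tac1 at 5.33, and 3 were lower, Penk at -6.97, Adm at -2.65 and Nmb at -1.90. Of 23 synaptic release genes 21 were higher (Syt13 6.88, Syt4 6.01, Rims2 5.87) and Sv2c (-1.47) and Vamp1 (-0.87) were lower. Of 22 cytoskeletal and axonal genes 20 were higher (Nrcam 5.77, Ina 5.74, Stmn4 5.56) and Tubb2a was lower at -0.73. Of 17 RNA-binding and brain-expressed genes 16 were higher (Celf6 6.15, Srrm3 5.76, Elavl2 5.72) and 0 were lower. The list of Notch, REST and non-neuroendocrine genes went mainly the other way. Of its genes 7 of 12 were lower, against 40.2% of all genes. Among them were Vim at -7.67, Axl at -7.40, Notch2 at -6.64, Rest at -6.32 and Hes1 at -2.99. Another 4 were higher, against 43.0% of all genes, among them Jag2 at 3.15, Dll1 at 2.89 and Hey1 at 1.41. Most of the other cells were immune-like, so a fold change alone does not separate a low level in tumour-like cells from a high level in immune-like cells. Without the shared barcodes the counts of these lists were the same, except that 2 genes of the granule list were lower, Secisbp2l and Atp6ap1 (-0.25).

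Outside the tumour-like cells, Stmn2 was higher in another class. Endothelial-like cells had 404.1 CPM of Stmn2 over 138 UMIs (exact 95% Poisson interval 339.5 to 477.5, libraries 229.2 to 566.7, shared barcodes left out), against 17.6 CPM in tumour-like cells. With each cell thinned to 500 UMIs, a Stmn2 UMI was found in 18.1% of 182 endothelial-like cells (Clopper-Pearson 12.8 to 24.5%), in 1.01% of tumour-like and in 0.0956% of T cell-like cells; the unthinned shares were 36.3%, 16.2% and 0.446% at median depths of 1400, 8861 and 2113 UMIs. Gap43, at 49.8 CPM in endothelial-like cells, ranged from 0 to 83.0 CPM between libraries there, and the class held 16 and 18 cells with anti-PD-1 and YKL-5-124.

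For most of the other genes the highest class outside the tumour was the airway or alveolar epithelial-like cluster of 71 cells. This cluster was led by airway and alveolar genes, among them Scgb1a1, Sftpc and Ager, and was named for 7 raised markers of that class. However, 9 tumour markers were raised there too. The tumour marker list holds epithelial genes such as Epcam, Krt8 and Cdh1, so a raised marker does not by itself show tumour RNA. The part of tumour RNA in the levels given here was not tested. Calca stood there at 438.4 CPM over 151 UMIs, but from 0 to 1245.1 CPM between libraries, and 5.63% of the cells held any Calca UMI. Nnat reached 55.3 CPM in dendritic cell-like cells, with libraries from 4.56 to 261.5 CPM, and Rtn1 16.7 CPM in monocyte or macrophage-like cells, with libraries from 15.7 to 21.0. Calcb had 5.94 CPM in T cell-like cells, above the 0.786 CPM of tumour-like cells (shared barcodes included in both), and ran from 0 to 24.9 CPM between libraries.

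Free RNA, read from barcodes of 10 to 100 UMIs, carried all the genes. Calca made up 503.0 CPM of it and Nnat 448.2 CPM, which is 31.4% and 46.0% of their levels in tumour-like cells; Pcsk1n had the lowest such share, 16.6%. The background in cells was far lower. In T cell-like cells, which should lack the programme, a Calca UMI was found in 0.669% of cells thinned to 500 UMIs, against 43.8% of tumour-like cells (41.7 to 45.9%, Clopper-Pearson). For Chga the shares were 0.0956% and 17.9%, and for Pcsk1n 0.127% and 10.7%. Unthinned, Calca UMIs were found in 2.99% and 94.2% of these cells.

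**Figure D2:**
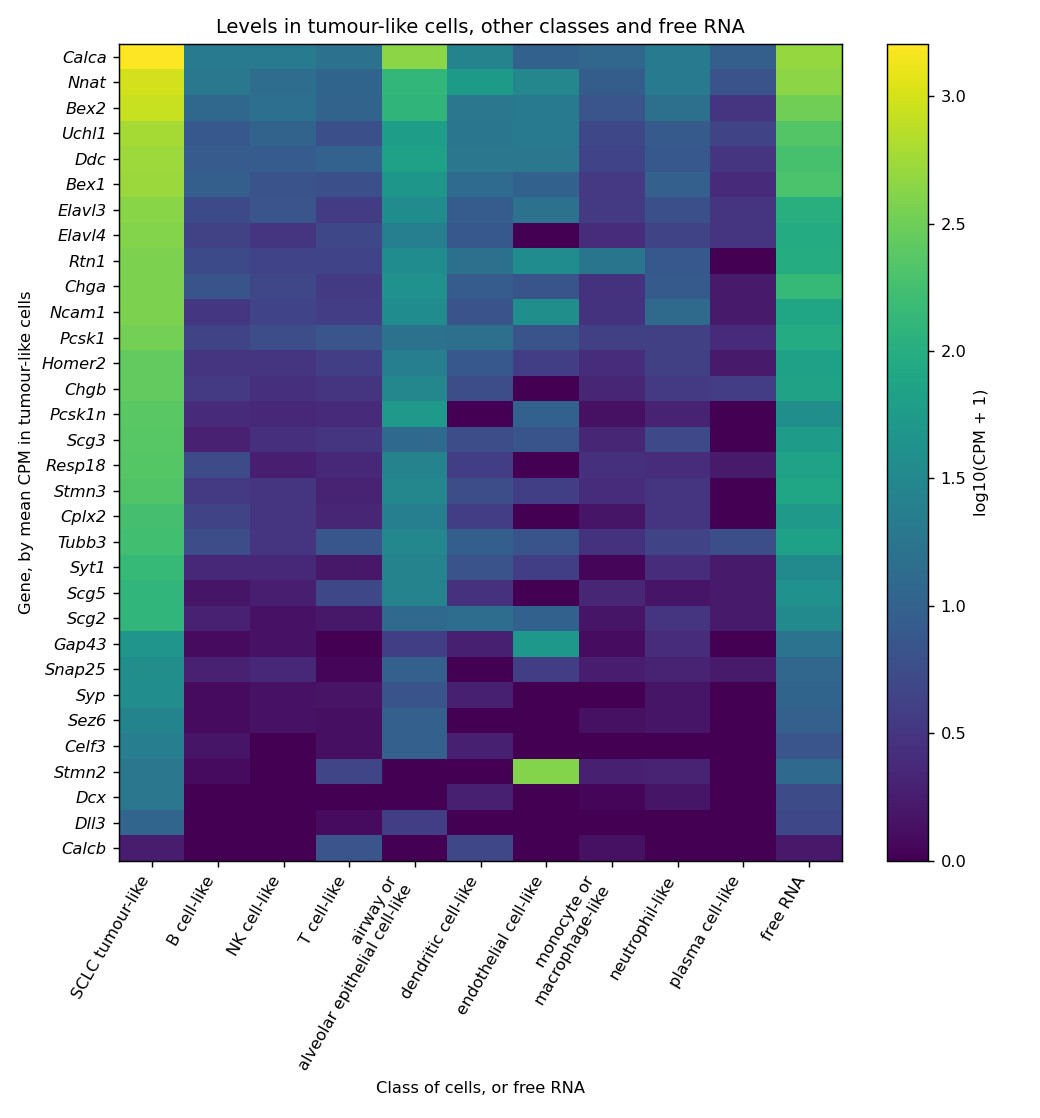
Level of each gene as log10(CPM + 1), by colour, in tumour-like cells, in each other named class with at least 50 cells and in free RNA, with genes ordered by their mean in tumour-like cells. The tumour-like column is the brightest for most genes, Stmn2 is brightest in endothelial-like cells, and Calca is also bright in the epithelial-like cluster.

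Tumour-like cells differ widely in depth, and cells with at least 10000 UMIs were set against those of 500 to under 2000. By edgeR's quasi-likelihood test with library as a block, Benjamini-Hochberg adjusted over 11532 genes, 3 of the 31 genes were higher in deep cells and 2 were lower, where 4.16% of all genes were called higher and 4.91% lower. Pcsk1n was higher by a log2 fold change of 1.47 ± 0.15 (adjusted p = 8.6e-12), Elavl4 by 0.53 ± 0.10 and Elavl3 by 0.34 ± 0.10, while Rtn1 (-0.48 ± 0.09) and Bex1 (-0.32 ± 0.09) were lower. The Elavl3 call was lost with DESeq2 (0.33) and without the YKL-5-124 library (0.27) or the combination (0.30), and the Bex1 call without the combination (-0.28). The shallow cells in this comparison were mostly shared barcodes, whose UMIs resembled those of a deeper barcode in another library. The sums of the 4 libraries may therefore not be independent, which the p-values with these barcodes kept assume. In shallow cells of the 4 libraries 6 immune genes summed to 349.8 to 2172.9 CPM, against 47.2 to 183.4 CPM in deep cells. Without the shared barcodes, on 165 shallow cells, 6 genes were higher (Uchl1, Homer2, Bex2, Elavl3, Bex1 and Ddc, by 0.69 to 0.81) and 0 were lower, against 3.76% and 0.385% of all genes and an all-gene median shifted to 0.28. These 165 cells had a median mitochondrial share of 4.46% (3.47 to 6.41% by library) against 1.82% in deep cells, and 36.2 to 397.4 CPM of the 6 immune genes; the part of either in these calls was not tested. Scaled to total UMIs instead, on the same cells, 0 members were called in either direction, against 0.85% and 0.778% of all genes; total UMIs with the shared barcodes kept gave 4 members higher and 2 lower, against 4.99% and 3.89%. At an adjusted p of 0.78 by edgeR, Pcsk1n was no longer called without the shared barcodes (0.22 ± 0.24).

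Pcsk1n levels were then read for each kind of cell. Pcsk1n stood at 129.8, 265.4, 246.5 and 396.5 CPM in the deep cells of control, anti-PD-1, YKL-5-124 and combination, and at 116.4, 250.9, 243.5 and 321.0 CPM in cells of 2000 to under 10000 UMIs. In shallow cells that were not shared barcodes it stood at 117.3, 219.3, 378.5 and 398.0 CPM, and in shared shallow barcodes at 75.6, 79.3, 58.8 and 35.0 CPM. The shallow cells that were not shared barcodes numbered 63, 33, 47 and 22 by library. They held 76731, 36476, 52841 and 27635 UMIs over all genes, so the level of any gene there rests on few UMIs. The first 3 kinds of cells overlapped, and the shared barcodes were below them in every library. Bex1 was the reverse, at 653.3 to 695.8 CPM in shared shallow barcodes against 383.8 to 417.0 in the other shallow cells, 455.8 to 490.4 in middle cells and 511.9 to 552.1 in deep cells. Rtn1 stood at 480.2 to 556.6 CPM in shared shallow barcodes and at 253.3 to 495.2 CPM in the other shallow cells.

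Within tumour-like cells that hardly contain shared barcodes, deep cells were compared with those of 2000 to under 10000 UMIs, shared barcodes left out. Of the 31 genes 2 were higher, against 7.31% of all genes, and 5 were lower, against 7.5%, by edgeR with Benjamini-Hochberg adjustment over 11876 genes. With the shared barcodes kept the counts were again 2 and 5, against 7.39% and 6.93% of all genes. Cplx2 stood at 168.4, 167.0, 159.7 and 164.4 CPM in deep cells against 249.2, 228.2, 223.6 and 262.4 CPM in middle cells. No deep value reached a middle value, and the log2 fold change was -0.55 ± 0.05 (adjusted p = 1.8e-10 by edgeR). Pcsk1 was lower at -0.37, Chga at -0.27, Chgb at -0.22 and Ncam1 at -0.19, each lower in 4 of 4 libraries. Bex1 was higher at 0.17 and Uchl1 at 0.10, each in 4 of 4 libraries. Of 14 lineage factors 5 were called higher in deep cells and 2 lower, and Insm1 was higher at 0.26. Of 17 granule and processing genes 2 were higher and 3 lower. The deep and middle cells differed in mitotic share too, the share of UMIs from G2 and mitosis genes being a median of 1.20% and 0.473%; its part in these values was not tested.

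**Figure D3:**
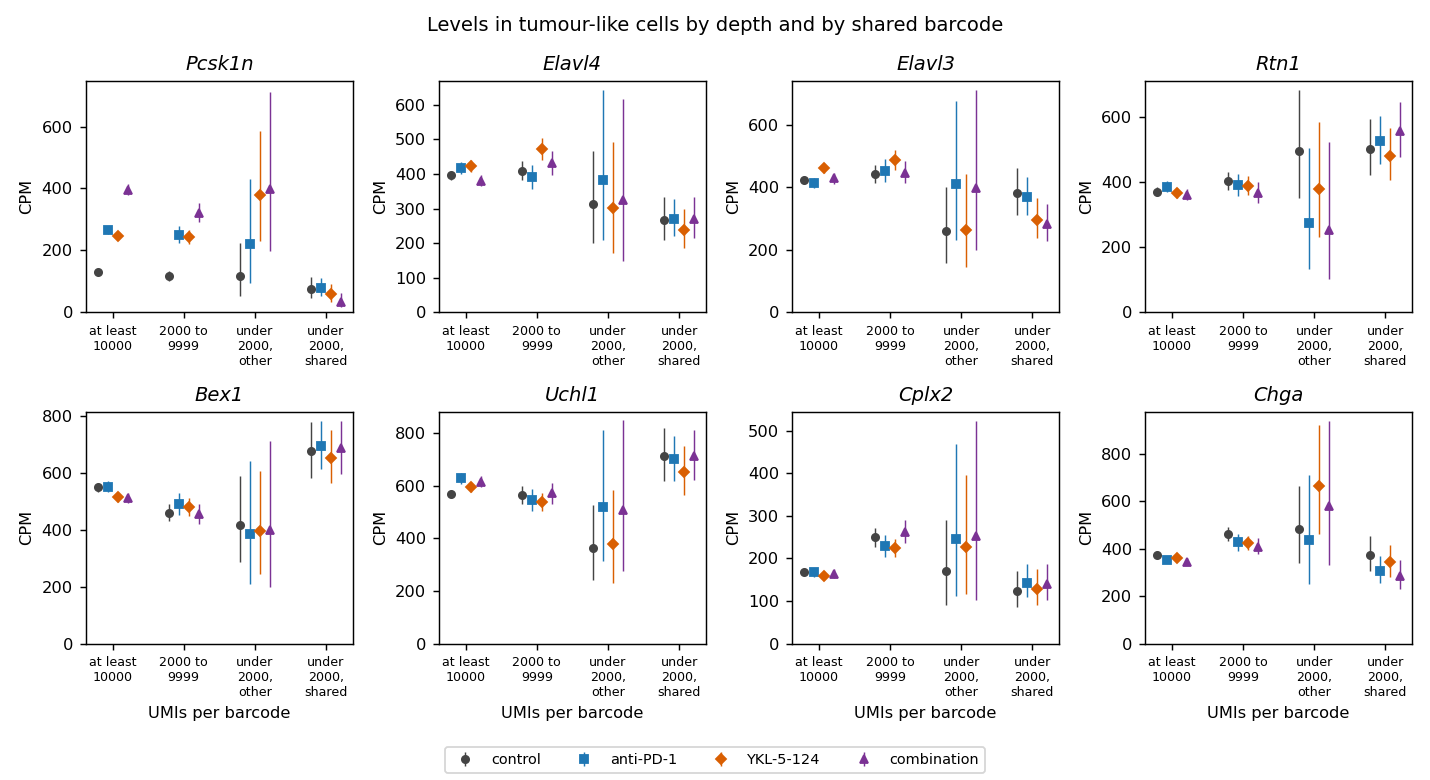
Level (CPM, linear axes from 0) of 8 genes in tumour-like cells by UMIs per barcode, with shallow cells divided into shared barcodes and others; points are libraries and bars exact 95% Poisson intervals. Pcsk1n is lowest and Bex1 and Uchl1 are highest in the shared shallow barcodes, and Cplx2 and Chga are lower in deep than in middle cells.

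Deep tumour-like cells were divided at the median mitotic share of their library, and by edgeR's quasi-likelihood test with library as a block 4 genes were higher and 6 lower in the more mitotic cells. Of the 11459 genes tested, 10.8% were called higher and 9.23% lower; 31 of the 32 genes were among them. All 10 called genes had the same direction in 4 of 4 libraries, and no deep cell was a shared barcode. Calca stood at 1373.7, 1280.2, 1230.5 and 1546.9 CPM in the more mitotic cells of control, anti-PD-1, YKL-5-124 and combination, against 1952.1, 1637.5, 1801.6 and 2083.6 CPM in the less mitotic cells. The 2 sets of values did not overlap, and the log2 fold change was -0.45 ± 0.03 (edgeR, adjusted p = 1.5e-21). Chga stood at 326.2, 299.3, 322.9 and 296.0 CPM against 436.3, 402.6, 404.6 and 390.2 CPM, also without overlap, at -0.38 ± 0.04 (edgeR, adjusted p = 6.2e-13).

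Of the release and synapse genes, Homer2 and Cplx2 were lower as well, while Syt1 (-0.09), Syp (0.07) and Snap25 (0.04) were not called. Homer2 stood at 210.9, 228.6, 226.9 and 258.5 CPM in the more mitotic cells against 323.1, 310.2, 319.3 and 355.8 CPM, at -0.50 ± 0.04 (edgeR, adjusted p = 1e-16). For Cplx2 the values were 147.2, 146.7, 133.5 and 155.2 CPM against 194.6, 185.3, 188.0 and 173.1 CPM, at -0.34 ± 0.05. Neither gene's values overlapped between the more and the less mitotic cells. Celf3 (-0.41 ± 0.13) and Ddc (-0.13 ± 0.04) completed the lower genes, with edgeR adjusted p-values of 0.013 and 0.007.

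Other members were higher in the more mitotic cells. Gap43 stood at 53.3, 57.8, 56.2 and 47.7 CPM against 37.8, 40.6, 30.9 and 31.7 CPM, at 0.61 ± 0.09 (edgeR, adjusted p = 8.9e-08). Scg2 stood at 141.0, 138.5, 150.9 and 130.3 CPM against 119.8, 110.8, 113.8 and 95.1 CPM, at 0.36 ± 0.06 (edgeR, adjusted p = 6.1e-07). The values of both genes did not overlap between the more and the less mitotic cells, so 2 granins, Chga and Scg2, differed in opposite directions; Chgb (0.13 ± 0.04) and Ncam1 (0.12 ± 0.04) went with Scg2, at adjusted p-values of 0.021 and 0.033 by edgeR. Chgb, Ncam1, Ddc and Celf3 were not called by DESeq2, which called 2 members higher and 4 lower. Leaving out the control library also lost these 4 calls, leaving out YKL-5-124 lost Ncam1, Ddc and Celf3, leaving out the combination lost Chgb and Ncam1, and leaving out anti-PD-1 lost Chgb. The other 21 genes were not called, with Dll3 at -0.36 ± 0.19 and Pcsk1n at -0.10 ± 0.05.

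**Figure D4:**
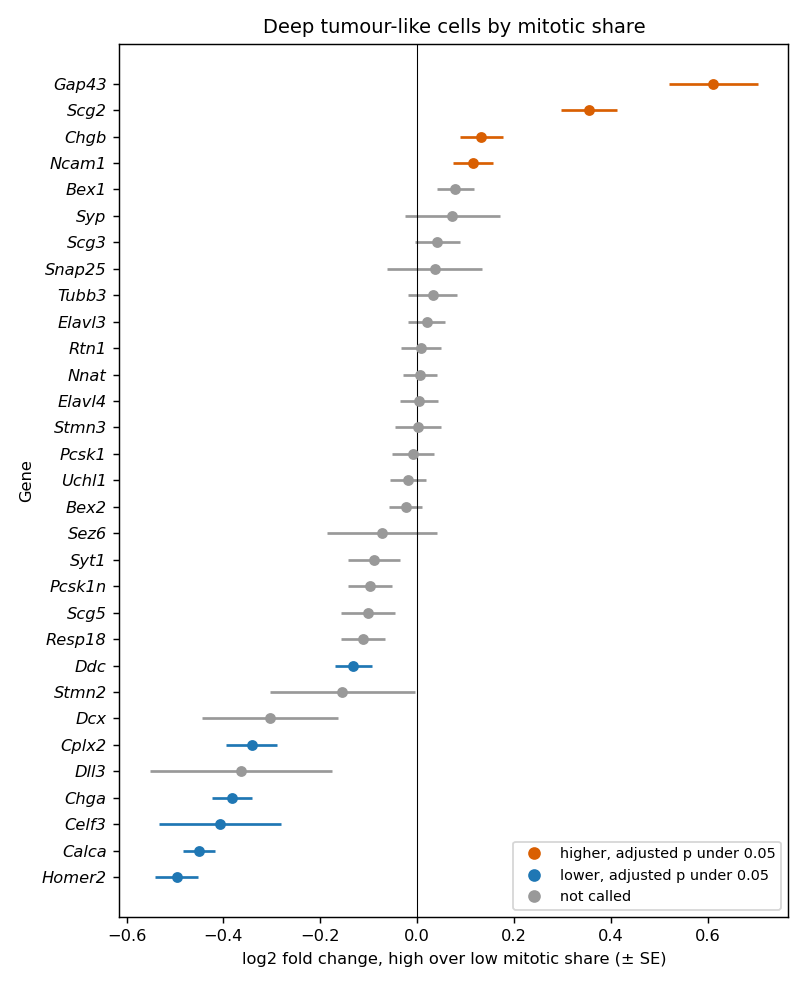
Log2 fold change with its SE (bars) of each of 31 genes in deep tumour-like cells, those with the higher over those with the lower mitotic share, from edgeR with library as a block. Gap43 (0.61) and Scg2 (0.36) lie highest, and Homer2 (-0.50) and Calca (-0.45) lowest.

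Related lists were divided in the same contrast. Of 13 lineage factors 3 were higher, Neurod1 (0.63), Isl1 (0.55) and Nkx2-1 (0.21), and 4 lower, among them Mycl (-0.52) and Hes6 (-0.20). Insm1 (0.08) and Hes1 (0.28) were not called. Of 17 granule and processing genes Qpct (0.58) and Slc18a1 (0.45) were higher and Cadps2 (-0.34), Ica1 (-0.23) and Atp6ap1 (-0.20) lower, and of 6 peptide hormone genes Tac1 (0.78) and Npy (0.57) were higher. Of 22 synaptic release genes Syt4 (0.68) was higher and Syt7 (-0.49) and Rab3a (-0.32) lower. Of 22 cytoskeletal genes 4 were higher, among them Tubb2a (0.64), Chl1 (0.39) and Marcks (0.19), and Mapt (-0.53) lower; Celf6 (-0.24) alone of 17 RNA-binding genes was lower. Of 7 Notch, REST and non-neuroendocrine genes Cd44 (0.91) was higher and Dll4 (-0.98) lower. The more mitotic cells had a median depth of 19803.5 to 25964.0 UMIs between libraries and the less mitotic 18518.0 to 21809.5.

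Treatment could be described but not tested, since each group had 1 library. A gene was counted as past the size rule when its log2 ratio, with 10 CPM added to both levels, exceeded 1.5-fold in either direction. Of the 31 genes with a mean of at least 10 CPM, Pcsk1n alone passed it, higher in each treated library than in control. With anti-PD-1 the ratio of CPM was 2.004 (exact 95% interval 1.87 to 2.15), where 0.425% of 8939 genes were past the rule upward. With YKL-5-124 it was 1.90 (1.78 to 2.04), where 0.291% were, and with the combination 2.91 (2.73 to 3.11), where 1.25% were. Downward, 0 of the 31 genes passed the rule, against 0.0%, 0.123% and 0.168% of all genes. The 3 comparisons share the control library, and the intervals of the ratios cover counting error only.

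The combination library was also above each single-agent library. Its Pcsk1n level was 1.53 times that with YKL-5-124 (1.44 to 1.62), just past the size rule at a log2 ratio of 0.59, and 1.45 times that with anti-PD-1 (1.37 to 1.54), not past it; 0.19% of genes passed it upward in each of these comparisons and 0.0671% and 0.168% downward. With cells weighted equally the first of these ratios was 0.20 on the log2 scale and not past the rule. Without the shared barcodes the log2 ratios against control were 0.99, 0.90 and 1.51 in place of 0.95, 0.88 and 1.47. In free RNA, Pcsk1n stood at 24.6, 30.0, 43.1 and 54.8 CPM in the control, anti-PD-1, YKL-5-124 and combination libraries, again lowest in control. Only Pcsk1n, Sez6 and Stmn2 of 31 genes were higher in the free RNA of the combination than in that of control, where the median ratio was 0.555.

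In shared shallow barcodes the order depended on which library they were assigned to. Assigned to the library of the deeper barcode, Pcsk1n stood at 32.3, 33.2, 74.0 and 136.1 CPM for control, anti-PD-1, YKL-5-124 and combination (14, 12, 20 and 37 UMIs). Assigned to the library in which they were found, the same barcodes gave 72.5, 77.1, 57.8 and 39.0 CPM. The combination was highest in the first order (95.8 to 187.6 CPM, 295 barcodes) and lowest in the second (20.8 to 66.7 CPM, 351 other barcodes). In the first order its interval overlapped that of YKL-5-124 (45.2 to 114.3 CPM) only. In the second order the intervals of all 4 libraries overlapped, that of control being 44.9 to 110.9 CPM. No barcode was assigned to the same library in both orders, so the orders are not independent.

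**Figure D5:**
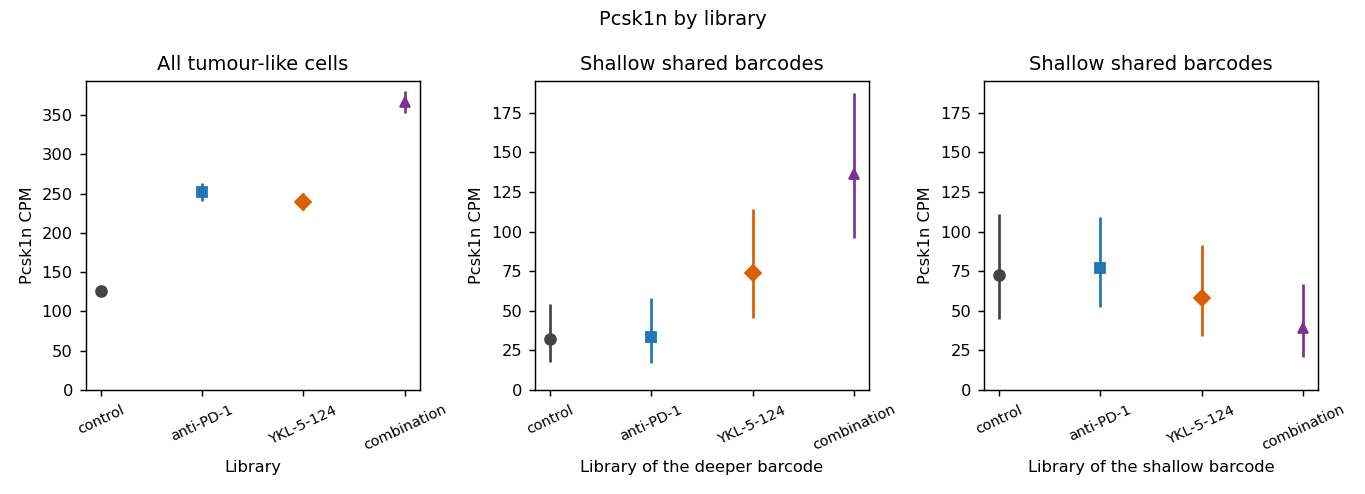
Pcsk1n level (CPM) by library in all tumour-like cells (left) and in shared shallow barcodes assigned to the library of their deeper barcode (middle) or to the library where they were found (right), with exact 95% Poisson intervals. The combination is highest on the left at 366.2 CPM and in the middle at 136.1 CPM, and lowest on the right at 39.0 CPM, where the intervals of all libraries overlap.

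The other 30 genes kept to a narrow range. With Pcsk1n included, the median log2 ratios against control were -0.02 for anti-PD-1, -0.01 for the CDK7 inhibitor and -0.04 for both agents, and -0.03 and -0.01 for the combination against YKL-5-124 and anti-PD-1; the medians of all genes were 0.00, 0.03, 0.01, -0.02 and 0.01. After Pcsk1n, Dcx was farthest from control in the combination, at 19.4, 20.5, 17.4 and 11.2 CPM over the libraries and a ratio of 0.578 (0.444 to 0.747). Its log2 ratio of -0.47 was inside the size rule, and the combination library lay below the other 3. Nnat had a ratio of 0.837 (0.812 to 0.863), Calca 1.09 (1.06 to 1.11) and Homer2 1.17 (1.11 to 1.24) in the combination against control. The intervals of these ratios leave out the spread between cells, which was widest for Calca and Nnat.

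The related lists and the G2 and mitosis list together held 138 measured genes, 51 of them from the latter. Of the 138, 3 passed the size rule upward in the combination against control, which is 2.17% against 1.25% of all genes, and 0 passed it downward. Vgf, a granin-like secreted protein, stood at 11.3, 18.7, 15.7 and 25.8 CPM, a ratio of 2.28; Cpe, the carboxypeptidase that trims prohormones after the convertases, at 146.7, 201.6, 200.0 and 228.2 CPM, a ratio of 1.56; and Nkx2-1, a lung lineage factor, at 87.5, 120.1, 96.5 and 141.1 CPM, a ratio of 1.61. Without the shared barcodes these ratios were 2.32, 1.58 and 1.62. In each of them control was lowest and the combination highest, an order favoured by their choice on the ratio between these libraries. Stmn4 was lower in the combination than with YKL-5-124, at a ratio of 0.533, and Ccnb1, a mitotic cyclin, was higher with YKL-5-124 than in control at 1.57. Insm1 stood at 61.3, 70.9, 56.5 and 70.9 CPM and Hes1 at 8.98, 9.80, 5.19 and 5.88 CPM. Rest stayed between 0.719 and 1.09 CPM.

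Markers of other cells moved between the same tumour-like libraries, and their part in these levels was not tested. Summed over 10 neutrophil markers the level was 27.7, 37.9, 202.6 and 109.6 CPM, over 12 monocyte or macrophage markers 40.5, 51.5, 103.8 and 112.6 CPM, and over 9 T cell markers 36.8, 31.3, 29.5 and 72.5 CPM. Over 9 airway or alveolar markers it was 68.3, 200.8, 101.5 and 150.3 CPM, and over 5 erythroid markers 4.58, 8.05, 231.9 and 8.02 CPM, so that YKL-5-124 stood apart. All markers of the T cell and airway lists were found in every library; Ly6g was at 0 in control, Ms4a7 at 0 in control, and Adgre1 at 0 in control and in the combination. Of the erythroid markers, Alas2 was found in the YKL-5-124 library only.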

How the data were processed

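Single Cell 3′ v2 libraries were sequenced, per the labels' protocols, and the authors deposited UMI counts per gene and barcode. The submitters' processing notes name bcl2fastq and Cell Ranger (software version 3.0.0 per the file headers); they also name hg19, although the gene IDs are mouse. The members and lists were chosen with earlier results of these data known. Scanpy 1.11.5 clustered the cells without the 32 genes (Leiden, 2000 variable genes, 30 components), and clusters were named from at least 3 markers; the 426 barcodes with the highest doublet scores were removed, at a rate set by the number of cells, since the caller's own threshold marked at most 5 in a library. Counts were summed per library and class and tested with edgeR 4.0.16 (TMM, filterByExpr, library as a block), and with DESeq2 1.42.0 as an alternative, at an adjusted p of 0.05; the scripts were tested on simulated data. Treated libraries were compared by size only. Genes named in full are the 8 with the highest mean CPM, those past 1.5-fold in a treatment comparison and those called with an absolute log2 fold change of at least 1 in the depth or mitotic contrast; the other genes described were chosen after their values were seen. Gene positions are from GENCODE M21 (GRCm38).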

Additional observations from a re-analysis of the deposited data

How the results depend on the processing

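Shared barcodes, deep cells against 2000 to under 10000 UMIs and scaling to total UMIs were alternatives chosen after seeing the data. Against other cells, 339 of 341 alternative values for single genes kept direction and call; without a filter on low counts 1 gene was lower (Calcb), and leaving out a library gave 30 to 31 genes higher and 0 lower. In the depth contrast, 3 genes higher became 6 without shared barcodes, and 0 without them and scaled to total UMIs, while total UMIs alone gave 4; 2 lower became 1 without a filter, 0 without shared barcodes, 6 with free RNA subtracted, 0 without shared barcodes and scaled to total UMIs (2 with total UMIs alone), and 5 against 2000 to under 10000 UMIs with or without the shared barcodes. Leaving out a library gave 2 to 3 higher and 1 to 2 lower, 1 without the combination. Direction reversed for Pcsk1n without shared barcodes and with total UMIs together (-0.13; total UMIs alone 1.53, without shared barcodes alone 0.22), against 2000 to under 10000 UMIs for Elavl3 (-0.076, and -0.088 also without shared barcodes) and Elavl4 (-0.075, and -0.086), for Bex1 without shared barcodes (0.73; 0.41 with total UMIs as well) and against 2000 to under 10000 UMIs (0.17 either way), and for Rtn1 without shared barcodes (0.30). By mitotic share, 4 higher became 2 with DESeq2, 2 without the library block and 2 with cells thinned to 10000 UMIs; leaving out a library gave 2 to 4 higher (2 without control, 2 without the combination) and 4 to 6 lower. By treatment, a pseudocount of 1 CPM put 1 gene, Dcx, past the rule downward in the combination against control, 1 against YKL-5-124 and 1 against anti-PD-1, and the less mitotic deep cells put 1 past it against anti-PD-1; against YKL-5-124, 0 were higher with cells weighted equally and 0 with classes from markers per barcode. The causes were not tested beyond what each setting changes. The highest other class had a median of 14.3% of the tumour-like level, and 13.1% without shared barcodes. No paired analysis was possible because each group has 1 library, as far as treatments are compared; the contrasts within libraries had the library as a block. Depth limited Calcb, Dll3, Rest and the 165 other shallow cells.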
